A study of Mus musculus with 112 samples.

Results

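Squamous cell carcinomas (SCC) of mouse skin were compared with papillomas, the benign squamous tumours, of the same mice. Arrays were taken by label: primary carcinomas with the histology SCC, and every papilloma of a mouse that had such a carcinoma. This gave 27 of the 112 arrays of the series, 10 from SCC carcinomas and 17 from papillomas, in 8 mice. The question is which transcripts differ between the benign and the malignant squamous tumours of an animal. All 8 mice were wild type (WT) for the allele labelled HrasKO, male and of the FVBBX cross, in which F1 hybrids of Spretus and FVB were crossed back to FVB. Each animal was given DMBA, a mutagen, when it was 8 weeks old, followed by the promoter TPA 2 times per week, and primary tumours were cut out once above 1 cm. Carcinomas and papillomas shared the cross, the mutagen and the promoter. The labels do not say which papilloma, if any, preceded a given carcinoma. A mouse contributed 1 or 2 carcinoma arrays and 1 to 3 papilloma arrays, and the mean per mouse and tissue was the unit of comparison.

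In 2-stage skin carcinogenesis, a mutagen creates initiated keratinocytes and repeated TPA drives their outgrowth into papillomas, some of which progress to SCC. Normal epidermal keratinocytes leave the basal layer, switch from basal to suprabasal keratins, make retinoic acid and barrier lipids, and end as cornified cells. TPA acts through protein kinase C and the AP-1 transcription factors, which bind the DNA motif TGANTCA known as the TPA response element.

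RNA was measured on Affymetrix whole-transcript arrays, and the values are log2 intensities, so that a difference of 1 is a 2-fold change. A level can be compared between samples for 1 gene, but not between genes. The 27 arrays had medians of 5.91 to 6.24 and correlated with each other at 0.823 to 0.991. In bulk tissue, fewer cells of a type and less RNA per cell cannot be told apart. Keratinocyte markers were high in both tissues: the mean of 16 markers was 10.3 to 11.4 on the SCC carcinoma arrays and 11.1 to 11.6 on 15 of the papilloma arrays. The other 2 papilloma arrays stood apart, 1 of mouse 1508 and 1 of mouse 1984, and across all genes they correlated best with the mean of the spindle carcinomas. The array of mouse 1508 had a keratinocyte mean of 9.21 and a mesenchymal mean of 10.5 over 13 markers. The array of mouse 1984 had a keratinocyte mean of 6.27 and a mesenchymal mean of 9.83, with skeletal muscle markers at 9.21 and adipocyte markers at 9.49. Muscle and fat markers were also high on a papilloma array of mouse 1949 that did not stand apart, at 8.85 and 9.18. Its keratinocyte mean was 11.1. The 2 arrays that stood apart stayed in the comparison as labelled. Where leaving them out changed the call of a gene named below, that value is given too. They were picked by their expression, and both are papillomas low in keratinocyte markers and high in mesenchymal markers. Leaving them out therefore raises the papilloma means of epithelial genes by construction. It likewise lowers those of genes high on these 2 arrays, such as mesenchymal markers. Calls gained in that fit, falls and rises alike, rest on this choice. Both SCC carcinoma arrays of mouse 1949 correlated best with the papilloma mean, and the papilloma of mouse 1717 with the SCC mean.

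**Figure D1:**
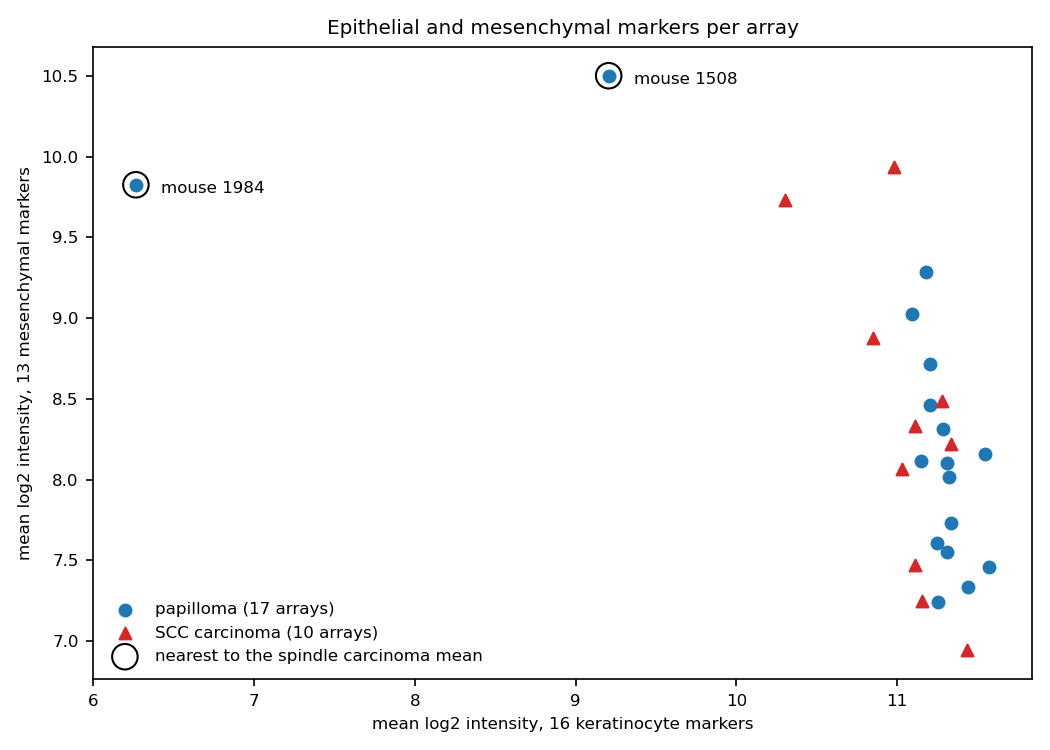
Mean log2 intensity of 16 keratinocyte markers (x axis) against that of 13 mesenchymal markers (y axis) for each of the 17 papilloma and 10 SCC carcinoma arrays. The 2 circled papilloma arrays, of mice 1508 and 1984, lie left of all others, at keratinocyte means of 9.21 and 6.27.

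By limma with mouse as a block and Benjamini-Hochberg adjustment over 18772 genes, 38 genes passed an adjusted p of 0.05, which was 0.202% of genes. Of these, 36 fell in the carcinomas (0.192% of all genes) and 2 rose (0.0107%), each in the same direction in 8 of 8 mice. The fallen genes had differences of -3.65 to -0.58 with a median of -1.42, and 23 of them fell more than 2-fold. Without an adjustment, 1141 genes were lower (6.08%) and 627 higher (3.34%) at p under 0.05. Across all genes the median difference was 0.004, with 9591 genes higher and 9181 lower in mean. The count depended on single mice. Leaving out mouse 1383, mouse 1456 (the animal of batch 2) or mouse 2022 left 0 genes past the threshold in limma, with 1312, 1396 and 1367 genes at unadjusted p under 0.05. Leaving out mouse 1717, 1949, 1984 or 2104 left 17, 15, 20 and 8 genes, and leaving out mouse 1508 gave 89. All 38 genes kept their direction in each of these fits, which was fixed in advance, since each had the same sign in 8 of 8 mice. Without the 2 papilloma arrays that stood apart, 377 genes passed (2.01% of all), 296 lower (1.58%) and 81 higher (0.431%), and the 38 genes were all among them.

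**Figure D2:**
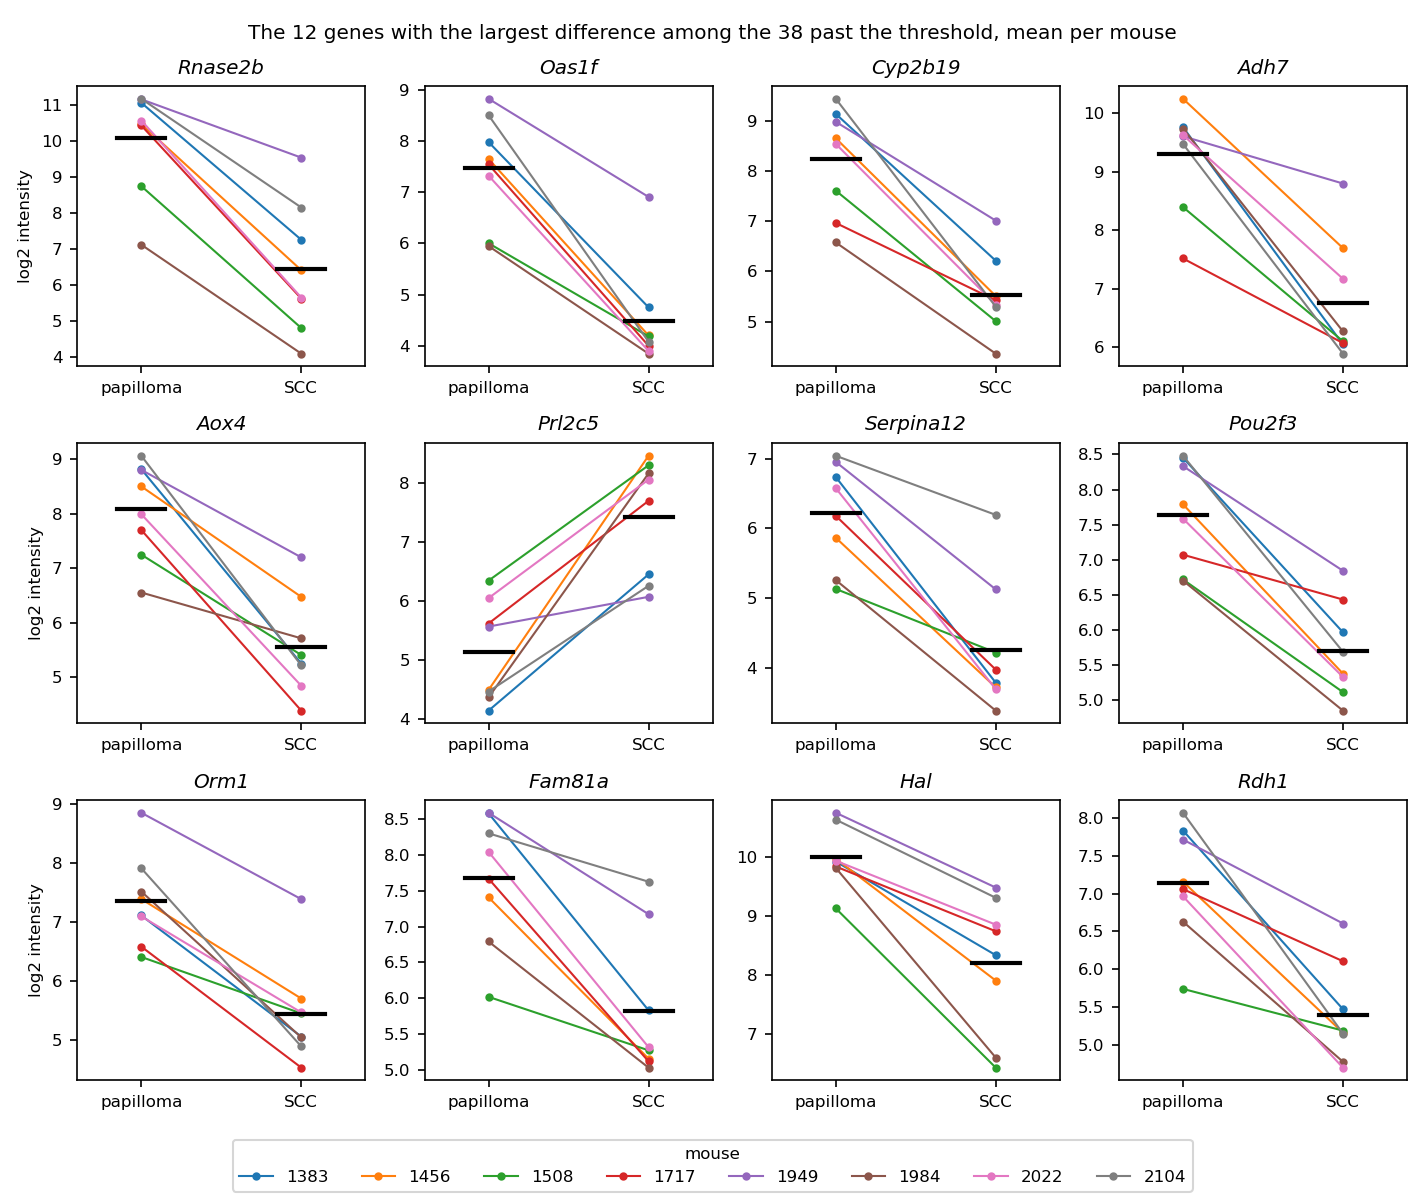
Log2 intensity (y axis) in papilloma and SCC carcinoma for the 12 genes with the largest difference among the 38 past the threshold, 1 line per mouse joining the mouse means and black bars for the means of 8 mice. The lines of 11 genes fall in every mouse and those of Prl2c5 rise in every mouse.

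Among the fallen genes were 3 enzymes of retinoid metabolism. Retinol is oxidised to retinaldehyde by alcohol and retinol dehydrogenases, and retinaldehyde to retinoic acid, the ligand of nuclear receptors in differentiating epithelium. Adh7, an alcohol dehydrogenase active on retinol, had papilloma levels of 7.52 to 10.25 with a median of 9.62, and carcinoma levels of 5.89 to 8.80 with a median of 6.19. It fell by 2.54 (SE 0.323, adjusted p = 0.0338), a 5.82-fold difference. The groups overlapped in level, since the papilloma means of mice 1508 and 1717 lay below the highest carcinoma mean, that of mouse 1949. Aox4, an aldehyde oxidase that acts on retinaldehyde, lay between 6.55 and 9.07 in papillomas with a median of 8.25, and between 4.38 and 7.20 in carcinomas with a median of 5.32. It fell by 2.53 (SE 0.337, adjusted p = 0.0377). Rdh1, a retinol dehydrogenase, lay between 5.74 and 8.07 (median 7.11) in papillomas and between 4.70 and 6.60 (median 5.17) in carcinomas. It fell by 1.75 (SE 0.254, adjusted p = 0.0411). For both genes the ranges overlapped between mice, and the carcinoma was the lower tissue within each mouse.

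The promoters of these 3 enzymes are shown because each holds the AP-1 motif. They are the 250 bases before the RefSeq start on build GRCm38.p6, 5′ to 3′ on the strand of the gene, with TGANTCA in capitals. Both strands were searched, and the motif is its own reverse complement. Adh7 is at chr3:138217523-138217772, Aox4 at chr1:58210147-58210396 and Rdh1 at chr10:127759513-127759762, all on the plus strand.
Adh7: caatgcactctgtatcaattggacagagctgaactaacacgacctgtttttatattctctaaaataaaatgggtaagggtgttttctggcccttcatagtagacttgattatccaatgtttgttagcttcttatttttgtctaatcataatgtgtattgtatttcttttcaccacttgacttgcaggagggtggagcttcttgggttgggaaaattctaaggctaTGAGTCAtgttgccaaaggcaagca
Aox4: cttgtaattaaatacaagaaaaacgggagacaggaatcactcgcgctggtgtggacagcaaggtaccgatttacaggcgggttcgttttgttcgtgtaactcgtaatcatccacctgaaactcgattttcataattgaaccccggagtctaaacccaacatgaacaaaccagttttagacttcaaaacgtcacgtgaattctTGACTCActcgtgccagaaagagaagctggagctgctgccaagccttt
Rdh1: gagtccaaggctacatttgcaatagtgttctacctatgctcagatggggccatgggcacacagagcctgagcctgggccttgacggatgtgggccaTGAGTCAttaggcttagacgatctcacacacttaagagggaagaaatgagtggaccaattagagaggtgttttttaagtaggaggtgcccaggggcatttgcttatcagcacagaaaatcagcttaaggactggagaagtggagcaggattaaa
The centre of the motif lay 22 bases before the start in Adh7, 45 in Aox4 and 151 in Rdh1. Of the fallen genes, 26 had a promoter in the table and 5 of them held the motif: Adh7, Aox4, Rdh1, Hal and Slc6a17. The motif was in 7.82% of the 27025 genes of the table, and in 6.75% of its 32851 promoters. Of the risen genes, Apobr held it and Prl2c5 did not. The octamer ATGCAAAT, the motif of POU factors such as Pou2f3, was in 0 of these 28 genes and in 1.81% of all genes. A match describes these letters in this window and is not a measured binding site.

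Most other retinoid genes had smaller differences. Of 28 measured genes for retinoid uptake and metabolism, 3 fell and 0 rose, with 19 lower in carcinoma and a median of -0.10. Over all 18772 genes, 0.192% fell, 0.0107% rose and 9181 had a lower mean. Lrat, which esterifies retinol for storage, had a difference of -1.80 (SE 0.426, adjusted p = 0.146), and Rdh9 one of -1.47 (SE 0.305, adjusted p = 0.105). Neither passed the threshold with all arrays. At the other end, Aldh1a2, a retinaldehyde dehydrogenase, was at 0.92 (SE 0.400) and Stra6, the retinol uptake receptor, at 0.53 (SE 0.222), and neither passed. The receptors Rarg (0.02) and Rxra (-0.04) differed by less than their SE of 0.141 and 0.097. Without the 2 arrays that stood apart, 6 members passed as lower, namely Adh7, Aox4, Rdh1, Lrat, Rdh9 and Crabp2, and 0 as higher. Over all genes, 1.58% passed as lower in that fit and 0.431% as higher.

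Cyp2b19, a keratinocyte cytochrome that makes epoxides of arachidonic acid, had papilloma levels of 6.57 to 9.43 with a median of 8.59. Its carcinoma levels were 4.36 to 7.01 with a median of 5.38. It fell by 2.71 (SE 0.257, adjusted p = 0.0106), and only papillomas of mice 1717 and 1984 were below the highest carcinoma. Of 20 measured enzymes of barrier lipids, 1 fell, and all 20 had a lower mean in carcinoma, with a median of -0.59. Over all 18772 genes, 0.192% fell and 9181 had a lower mean. Acer1, an alkaline ceramidase, stood at -1.69 (SE 0.526, adjusted p = 0.296) and Aloxe3, an epidermal lipoxygenase, at -1.02 (SE 0.652). These 2 were lower in 6 of 8 mice each and did not pass. With the 2 arrays that stood apart left out, the list median was -0.98 and Acer1 passed at -2.17 (adjusted p = 0.0213; 0.0213 to 0.600 over 18 alternatives), lower in 8 of 8 mice.

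Rnase2b, which belongs to the eosinophil-associated ribonucleases, showed the largest difference of the genes past the threshold. Papillomas lay between 7.12 and 11.17 with a median of 10.52, and carcinomas between 4.09 and 9.54 with a median of 6.03. It fell by 3.65 (SE 0.334, adjusted p = 0.0106), or 12.5-fold, and the ranges overlapped through the high carcinomas of mice 1383, 1949 and 2104 and the low papillomas of mice 1508 and 1984. The other 6 measured ribonucleases of the list did not pass, with differences of -1.02 (Rnase2a) to 0.21 (Ang4). Eosinophil and basophil markers had a median difference of 0.19 over 9 genes, and the mean level over the list was 5.23 to 6.04 in papillomas and 4.59 to 6.34 in carcinomas. Their part in the result was not tested. Oas1f, of the family of 2′-5′-oligoadenylate synthetases, lay between 5.95 and 8.82 in papillomas (median 7.60) and between 3.85 and 6.91 in carcinomas (median 4.14). It fell by 2.98 (SE 0.291, adjusted p = 0.0106), and 7 of the 8 carcinoma means were below every papilloma. Among 23 interferon-induced genes, Oas1f was the 1 that passed (0.202% of all genes did). The other 22 had differences of -0.20 (Oas1c) to 0.85 (Irf7). Probes for members of such families can share sequence, and no probe sequences were used here.

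Among transcription factors, Pou2f3, a POU-domain factor of suprabasal keratinocytes, lay between 6.70 and 8.48 in papillomas (median 7.69) and between 4.85 and 6.84 in carcinomas (median 5.53). It fell by 1.94 (SE 0.220, adjusted p = 0.0175). Its ranges overlapped only slightly, between the papillomas of mice 1508 and 1984 and the carcinomas of mouse 1949. Pou3f1, another POU factor of keratinocytes, stood at -0.88 (SE 0.200, adjusted p = 0.137), and it passed at -0.99 (adjusted p = 0.0303; 0.0133 to 0.343 over 18 alternatives) without the 2 arrays that stood apart. The zinc-finger factor Klf12 fell by 1.65 (SE 0.248, adjusted p = 0.0456) and the nuclear receptor Rora by 1.42 (SE 0.201, adjusted p = 0.0398). Of 27 keratinocyte differentiation factors, Pou2f3 was the 1 that passed, 22 had a lower mean in carcinoma, and the median was -0.24. Over all 18772 genes, 0.202% passed and 9181 had a lower mean. Trp63, the master regulator of the basal state, had a difference of 0.32 (SE 0.243), and Klf4 one of -0.57 (SE 0.321), neither past the threshold.

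The remaining fallen genes included enzymes and secreted proteins of epidermis. Hal, the histidase that makes urocanic acid in skin, lay between 9.13 and 10.75 in papillomas (median 9.93) and between 6.43 and 9.48 in carcinomas (median 8.54), and it fell by 1.79 (SE 0.250, adjusted p = 0.0398). Serpina12, the serpin vaspin, fell by 1.96 (SE 0.246, adjusted p = 0.0338), from papilloma levels of 5.13 to 7.04 to carcinoma levels of 3.38 to 6.19. Orm1, the acute-phase protein alpha-1-acid glycoprotein, fell by 1.92 (SE 0.203, adjusted p = 0.0131), from 6.41 to 8.86 in papillomas to 4.54 to 7.39 in carcinomas. Its relatives Orm2 (-0.07) and Orm3 (-0.23) did not pass. Hephl1, a copper-dependent ferroxidase, fell by 1.48 (SE 0.146, adjusted p = 0.0106), Car6, a secreted carbonic anhydrase, by 1.42 (SE 0.149), and Cyp17a1, a steroid hydroxylase, by 1.12 (SE 0.125). The calcium pump Atp2b4 (-1.49) and the sodium, calcium and potassium exchanger Slc24a3 (-0.94) fell as well.

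Genes with no epidermal role named here made up the rest. Fam81a lay between 6.02 and 8.59 in papillomas (median 7.86) and between 5.03 and 7.63 in carcinomas (median 5.30), and fell by 1.86 (SE 0.265, adjusted p = 0.0398). Dapl1 fell by 1.57, Rnf227 by 1.48, Stmn2, a regulator of microtubules, by 1.29, and Osbpl1a, an oxysterol-binding protein, by 1.20. The transporter-like Slc35g1 fell by 1.13, Nat8l, which makes N-acetylaspartate, by 0.91, Glcci1 by 0.89, and Il12rb2, a subunit of the interleukin-12 receptor, by 0.87. Acad9, a mitochondrial assembly factor of complex I, and Dexi each fell by 0.79, Dpysl5 by 0.76 and Trnp1 by 0.72. All were lower in 8 of 8 mice.

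Papilloma and carcinoma levels did not overlap for 17 genes (0.0906% of all), and Plxdc2, Fras1 and Slc6a17 were those among the 38. Plxdc2, a membrane protein with a plexin-like domain, lay between 10.31 and 10.85 in papillomas and between 7.92 and 9.84 in carcinomas, and fell by 1.42 (SE 0.192, adjusted p = 0.0378). Fras1, a protein of the epithelial basement membrane, lay between 5.40 and 6.66 against 4.69 and 5.24, and fell by 0.86 (SE 0.111, adjusted p = 0.0338). Slc6a17, an amino acid transporter of synaptic vesicles, lay between 6.35 and 6.76 against 5.41 and 6.20, and fell by 0.75 (SE 0.108, adjusted p = 0.0411). Smaller falls past the threshold came from Crip2, a LIM-domain protein (-0.60), and Cipc, a partner of the CLOCK protein (-0.58). Skint10, of a family named for the selection of intraepithelial T cells, fell by 0.90 (SE 0.138, adjusted p = 0.0471) at low levels, with a papilloma median of 4.30. Its list of dendritic epidermal T cell and Skint genes had 9 of 9 means lower, with a median of -0.36. Of all 18772 genes, 9181 had a lower mean.

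The 2 genes that rose were Prl2c5 and Apobr. Prl2c5, a proliferin of the prolactin family, lay between 4.14 and 6.35 in papillomas with a median of 5.03, and between 6.07 and 8.47 in carcinomas with a median of 7.88. It rose by 2.31 (SE 0.347, adjusted p = 0.0456), a 4.95-fold difference, and the carcinomas of mouse 1949 were the lowest of the 8. Prl2c1 stood at 0.41 (SE 0.113, adjusted p = 0.219) and Prl8a9 at 1.65 (SE 0.694, adjusted p = 0.495), and neither passed. Apobr, a lipoprotein receptor of macrophages, lay between 5.80 and 6.78 in papillomas and between 6.48 and 8.49 in carcinomas, and rose by 1.09 (SE 0.163, adjusted p = 0.0456). Macrophage markers had a median difference of 0.28 over 13 genes, of which 11 were higher (9591 of all 18772 genes were). With all arrays 0 of these markers passed (1, Msr1, without the 2 arrays that stood apart). Macrophage list means were 7.74 to 9.68 in papillomas and 7.90 to 9.80 in carcinomas. Their part in the rise of Apobr was not tested.

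**Figure D3:**
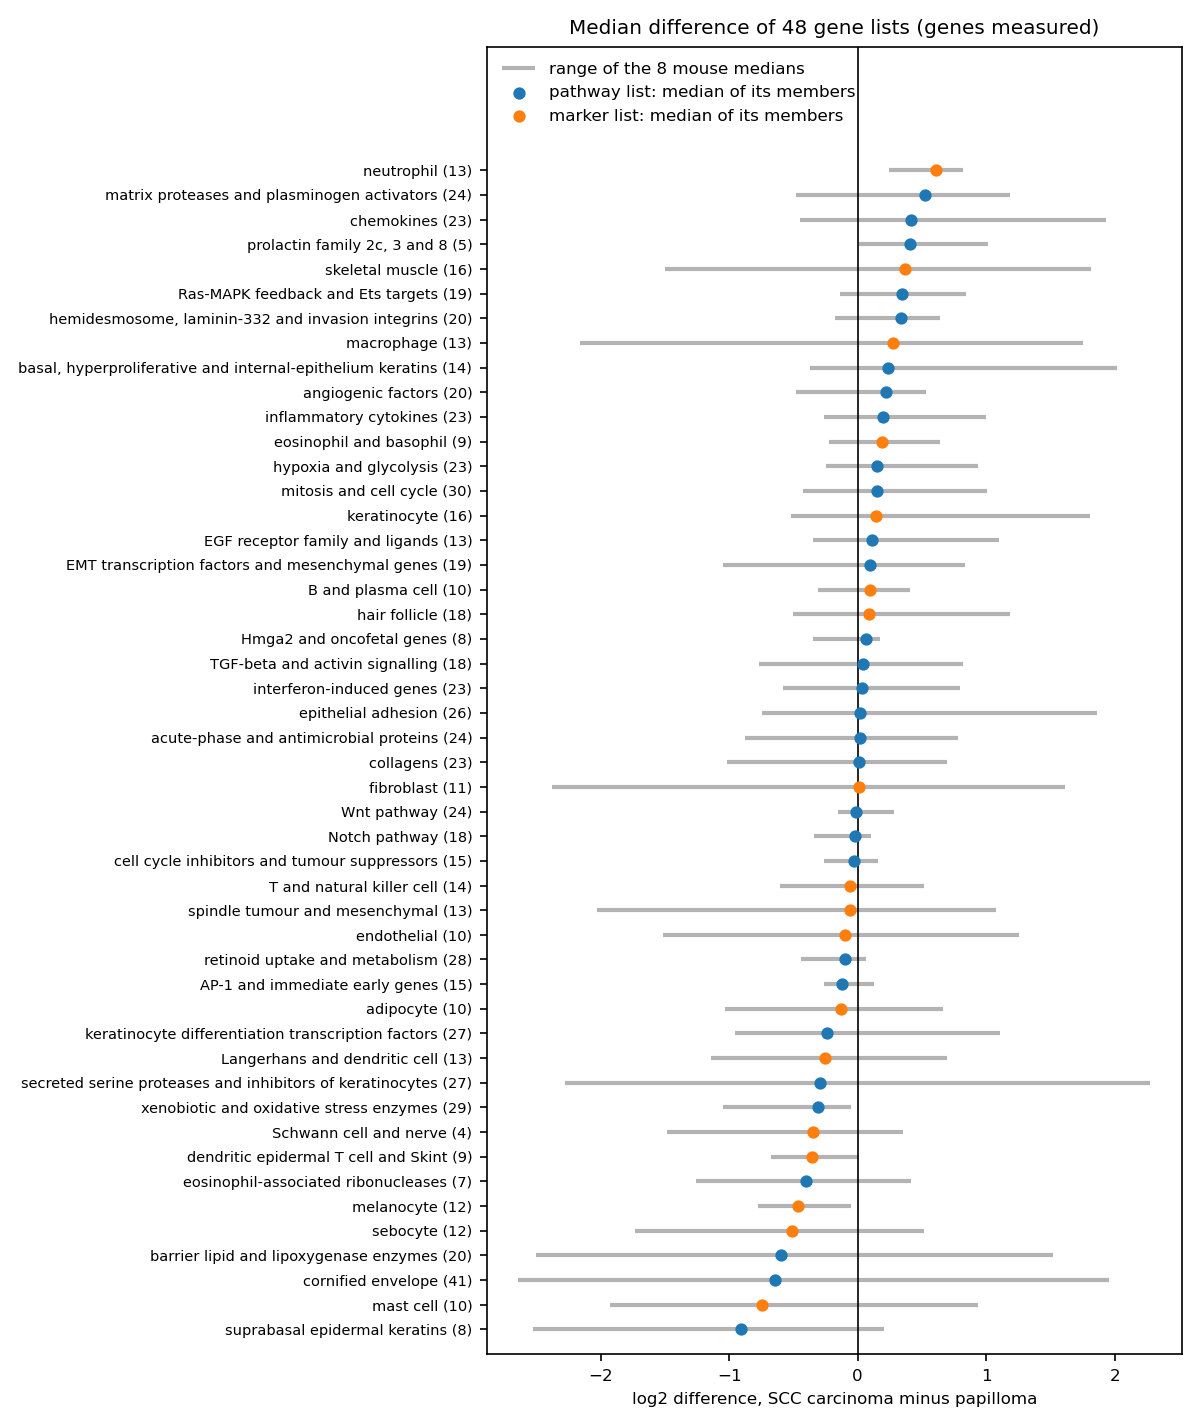
Median log2 difference (x axis, SCC carcinoma minus papilloma) of the members of 48 gene lists (y axis, with the number of genes measured), with grey lines for the range of the 8 mouse medians. Suprabasal keratins lie lowest at -0.91 and neutrophil markers highest at 0.61, and the line of the neutrophil list does not reach 0.

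Gene lists gave a wider view, although 39 of the 48 had no member past the threshold. Of all 18772 genes, 9181 had a lower and 9591 a higher mean in carcinoma. In all 8 mice, 339 genes were lower (1.81% of all) and 126 were higher (0.671%). The suprabasal keratins had 8 measured members, 0 of which passed, and a median of -0.91, with 7 of 8 mouse medians lower. Krt1, the main keratin of the spinous layer, lay between 9.72 and 12.67 in papillomas (median 12.39) and between 5.53 and 12.44 in carcinomas (median 8.88). Its difference of -2.71 (SE 0.589, adjusted p = 0.116) was negative in 8 of 8 mice. Its partner Krt10 stood at -1.95 (SE 0.552, adjusted p = 0.234). Without the 2 arrays that stood apart Krt10 was the 1 member that passed, at -2.23 (adjusted p = 0.0422; 0.0422 to 0.517 over 18 alternatives), lower in 8 of 8 mice. The carcinomas spread far more than the papillomas in Krt1, with an SD of 2.44 against 0.959.

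The 41 measured cornified envelope genes had a median of -0.64, with 32 lower and 0 past the threshold, and mouse medians of -2.64 to 1.96. Flg2, a filaggrin-like protein, was at -2.50 (SE 0.453, adjusted p = 0.0708), Lor, the envelope protein loricrin, at -1.65 (SE 0.880) and Ivl, involucrin, at -0.18 (SE 0.223). The small proline-rich genes of stressed epidermis Sprr1a (0.25) and Sprr1b (0.19) lay near 0. When the 2 arrays that stood apart were left out, the list median was -1.02, and Flg2 passed at -2.76 (adjusted p = 0.0166; 0.00947 to 0.223 over 18 alternatives). The keratinocyte markers had a median of 0.14 with all arrays and -0.18 without those 2, and their list mean was 9.60 to 11.56 in papillomas and 10.64 to 11.43 in carcinomas. Their part in the envelope and barrier differences was not tested.

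Of 14 keratins of basal, hyperproliferative and internal epithelia, 11 had a higher mean in carcinoma and 0 passed, with a median of 0.23 that turned to -0.03 without the 2 arrays that stood apart. Krt8, a keratin of simple epithelia, lay between 6.90 and 10.61 in papillomas (median 8.34) and between 8.27 and 12.24 in carcinomas (median 10.63). Its difference of 1.78 (SE 0.411, adjusted p = 0.140) was positive in 8 of 8 mice, as was that of its partner Krt18 at 1.56 (SE 0.415, adjusted p = 0.202). The basal keratins Krt5 (0.28, SE 0.181) and Krt14 (0.18, SE 0.197) and the hyperproliferative Krt6a (0.18, SE 0.272) did not pass. Krt13, a keratin of internal stratified epithelium that marks late papillomas, was at -0.67 (SE 0.688). Without the 2 arrays that stood apart Krt8 passed at 2.03 (adjusted p = 0.0328), and over the 18 alternatives tried its adjusted p was 0.0304 to 0.325.

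Enzymes of xenobiotic and oxidative defence were lower in 22 of 29 cases, with a median of -0.31 that was negative in 8 of 8 mice, and 0 passed. Aldh3a1, an aldehyde dehydrogenase of squamous epithelium, had a difference of -2.43 (SE 0.517, adjusted p = 0.112), the cystine transporter Slc7a11 one of -0.99 (SE 0.250) and the quinone reductase Nqo1 one of -0.74 (SE 0.297). With the 2 arrays that stood apart left out, 5 members passed as lower, namely Aldh3a1, Slc7a11, Nqo1, Gstm3 and Srxn1. Over all genes, 1.58% did.

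The proteases of the extracellular matrix were higher in 20 of 24 cases, with a median of 0.52 and 0 past the threshold. Mmp3, stromelysin-1, lay between 8.14 and 10.18 in papillomas (median 8.87) and between 8.77 and 11.61 in carcinomas (median 11.01). Its difference was 1.70 (SE 0.305, adjusted p = 0.0708). Mmp12, the macrophage elastase, lay between 7.79 and 9.85 (median 8.74) against 9.33 and 10.90 (median 10.24), a difference of 1.44 (SE 0.258, adjusted p = 0.0708). Mmp13, a collagenase, was at 1.20 (SE 0.251, adjusted p = 0.105) and Mmp8, the collagenase of neutrophils, at 0.67 (SE 0.118, adjusted p = 0.0691). These 4 were the members higher in all 8 mice, a pattern of 0.671% of all genes. Gelatinase Mmp2 (-0.09, SE 0.458) and the membrane-bound Mmp14 (0.20, SE 0.213) differed by less than their SE. Without the 2 arrays that stood apart, Mmp3 (2.16, adjusted p = 0.0108), Mmp12 (1.66, adjusted p = 0.0300) and Mmp13 (1.36, adjusted p = 0.0380) passed. Over the 18 alternatives the adjusted p was 0.00899 to 0.215 for Mmp3 and 0.0300 to 0.190 for Mmp12.

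The upstream 250 bases of Mmp3 (chr9:7445572-7445821) and Mmp13 (chr9:7272264-7272513), both on the plus strand of GRCm38.p6, are shown beside those of the retinoid enzymes because both groups hold the motif while their values went in opposite directions.
Mmp3: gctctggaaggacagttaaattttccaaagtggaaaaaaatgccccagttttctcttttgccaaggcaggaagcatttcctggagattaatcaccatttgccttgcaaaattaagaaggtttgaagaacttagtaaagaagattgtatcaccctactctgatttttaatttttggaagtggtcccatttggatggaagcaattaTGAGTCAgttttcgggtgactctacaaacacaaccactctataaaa
Mmp13: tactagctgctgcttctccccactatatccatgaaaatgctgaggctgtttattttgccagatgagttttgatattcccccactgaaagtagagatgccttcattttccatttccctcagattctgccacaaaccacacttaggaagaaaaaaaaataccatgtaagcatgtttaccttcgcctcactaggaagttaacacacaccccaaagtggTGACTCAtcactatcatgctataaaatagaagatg
The motif centre lay 43 bases before the start in Mmp3 and 32 in Mmp13. Of 10 measured matrix metalloproteinase genes with a promoter in the table, 7 held the motif, against 7.82% of all genes. They were Mmp1a, Mmp1b, Mmp3, Mmp7, Mmp10, Mmp12 and Mmp13. With all arrays 0 of them passed the threshold, and Mmp1b and Mmp10 were lower in some of the mice. Of the measured AP-1 and immediate early genes, 15 in number, 0 passed, and their median difference was -0.12.

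Neutrophil markers were the list with the highest median, 0.61 over 13 genes, with mouse medians of 0.25 to 0.82 that were all above 0. None passed by limma, and 8 were higher at unadjusted p under 0.05, as were 3.34% of all genes. The list mean lay between 7.68 and 9.42 in papillomas (median 8.21) and between 8.40 and 9.71 in carcinomas (median 8.91), so the groups overlapped. Clec4e, a C-type lectin of myeloid cells, was at 1.05 (SE 0.209, adjusted p = 0.0915) and Csf3r, the receptor for granulocyte colony-stimulating factor, at 0.95 (SE 0.186, adjusted p = 0.0864), each higher in 8 of 8 mice. The alarmins S100a8 (-0.12) and S100a9 (-0.01), which keratinocytes also make, lay near 0. Mmp8 and Mmp9 belong to both the neutrophil and the protease list, and the part of neutrophil RNA in the protease values was not tested.

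Ligands for neutrophil receptors were on the higher side as well. Cxcl3 was at 1.73 (SE 0.376, adjusted p = 0.116) and Cxcl5 at 1.42 (SE 0.312, adjusted p = 0.120), both higher in 8 of 8 mice. The colony-stimulating factor Csf3 was at 0.90 (SE 0.245) and the cytokine Il1b at 0.76 (SE 0.217), also in 8 of 8 mice. The related ligands Cxcl1 (0.74) and Cxcl2 (0.42) were lower in some of the mice. Of 23 chemokines, 19 were higher and 0 passed, with a median of 0.42. Il18, an interleukin of keratinocytes, went the other way at -1.38 (SE 0.263, adjusted p = 0.0813), lower in 8 of 8 mice, as were 1.81% of all genes. Without the 2 arrays that stood apart Il18 passed at -1.46 (adjusted p = 0.0229, and 0.0064 to 0.245 over 18 alternatives). The acute-phase gene Saa3 lay between 5.61 and 8.96 in papillomas (median 6.85) and between 8.15 and 10.20 in carcinomas (median 8.94). Its difference was 2.11 (SE 0.437, adjusted p = 0.105). Of the 24 measured acute-phase and antimicrobial genes, 12 were higher and 12 lower, with a median of 0.02. With all arrays 1 of that list passed, Orm1, which fell. With the 2 arrays that stood apart left out, Saa3 (2.54, adjusted p = 0.0108), Cxcl3 (1.81, adjusted p = 0.0397) and Cxcl5 (1.67, adjusted p = 0.0425) passed. Over the 18 alternatives their adjusted p was 0.0108 to 0.281, 0.0397 to 0.282 and 0.0425 to 0.324.

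**Figure D4:**
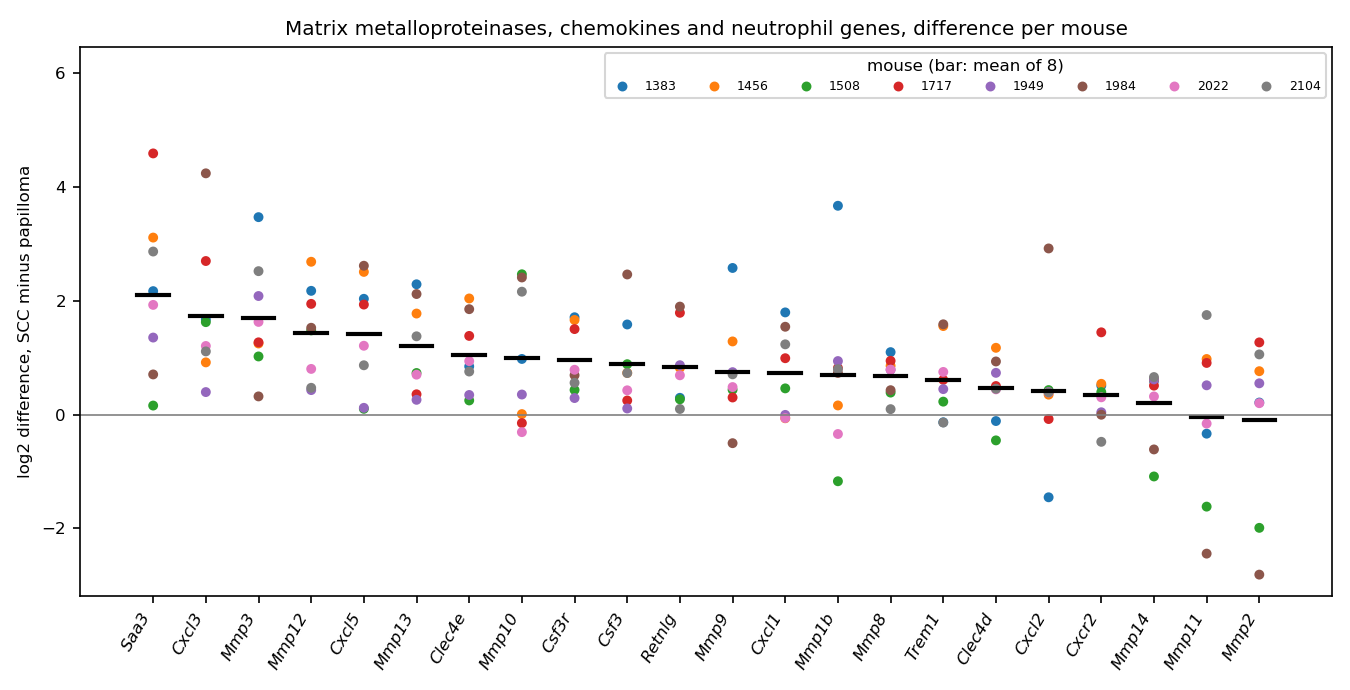
Log2 difference per mouse (y axis, SCC carcinoma minus papilloma; points coloured by mouse, bar for the mean of 8) for matrix metalloproteinases, chemokines, neutrophil genes, Csf3 and Saa3 (x axis), chosen after their values were seen. All 8 points of Mmp3, Mmp12, Mmp13, Mmp8, Saa3, Cxcl3 and Cxcl5 lie above 0, while those of Mmp2, Mmp11, Cxcl1 and Cxcl2 lie on both sides.

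Pigment cell and mast cell markers were on the lower side. All 12 melanocyte markers had a lower mean in carcinoma, with a median of -0.47, mouse medians of -0.78 to -0.05, and 0 past the threshold. Tyrp1, a melanosome enzyme, was at -2.30 (SE 0.472, adjusted p = 0.104) and Dct, dopachrome tautomerase, at -2.06 (SE 0.390, adjusted p = 0.0811). Both were lower in 8 of 8 mice, as were 1.81% of all genes. Mitf, the factor that defines the lineage, was at -0.06 (SE 0.266). Without the 2 arrays that stood apart 3 markers passed as lower, Tyrp1 (-2.51, adjusted p = 0.0213), Dct (-2.20, adjusted p = 0.0213) and Pmel (-0.95, adjusted p = 0.0493). In that fit 1.58% of all genes passed as lower. Over 18 alternatives the adjusted p was 0.0142 to 0.284 for Tyrp1 and 0.0197 to 0.233 for Dct. The list mean lay between 5.20 and 6.73 in papillomas and between 4.87 and 6.16 in carcinomas. Of 10 mast cell markers, 9 were lower and 0 passed, with a median of -0.74 and 7 of 8 mouse medians below 0. The carboxypeptidase Cpa3 was at -1.61 (SE 0.670), from -4.87 in mouse 1984 to 0.86 in mouse 1949. The 1 marker with a higher mean was Hdc, at 0.455 (SE 0.167).

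Signalling and growth lists were nearer to 0. Of 19 feedback genes and targets of the Ras-MAPK pathway, 15 were higher and 0 passed, with a median of 0.34. The phosphatases Dusp10 (0.92, SE 0.263) and Dusp4 (0.88, SE 0.275) led that list, and Dusp10 passed without the 2 arrays that stood apart (1.09, adjusted p = 0.0475; 0.0475 to 0.493 over 18 alternatives). Of 30 genes of mitosis and cell cycle, 26 had a higher mean and 0 passed, with a median of 0.15, but the mouse medians of this list were higher in 3 mice and lower in 5, from -0.42 to 1.01. Of 20 genes of hemidesmosomes, laminin-332 and invasion integrins, 16 were higher and 0 passed (median 0.33), with the matrix protein tenascin, Tnc, at 0.79 (SE 0.255). The Notch (-0.02), Wnt (-0.01) and collagen (0.01) lists had medians near that of all genes.

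Several members of lists with medians near 0 had larger differences, none past the threshold with all arrays. Twist2, a mesenchymal transcription factor, was at 1.06 (SE 0.217, adjusted p = 0.104) in a list of 19 with a median of 0.10. Pkp2, a desmosomal plakophilin, was at 0.86 (SE 0.172, adjusted p = 0.0939) and higher in 8 of 8 mice. Its adhesion list of 26 had a median of 0.02. Without the 2 arrays that stood apart that median was -0.27. There 3 members passed as lower (1.58% of all genes did) and 1 as higher (0.431% of all). Wnt3, a Wnt ligand, stood at -1.16 (SE 0.322, adjusted p = 0.223). The collagen Col11a1 was at -0.79 (SE 0.159, adjusted p = 0.0999), lower in 8 of 8 mice, as were 1.81% of all genes. Klk5, a kallikrein protease that sheds cornified cells, was at -2.07 (SE 0.468, adjusted p = 0.133), in a list of 27 secreted proteases and inhibitors with a median of -0.30. Ltbp2, a binding protein of latent TGF-beta, was at 0.67 (SE 0.148, adjusted p = 0.128), and the chromatin protein Hmga2 at 0.68 (SE 0.258, adjusted p = 0.422). When the 2 arrays that stood apart were left out, all of these but Hmga2 (0.59, adjusted p = 0.141) passed. They were Twist2 at 1.09 (adjusted p = 0.0314), Pkp2 at 1.03 (adjusted p = 0.0475), Wnt3 at -1.33 (adjusted p = 0.0395), Col11a1 at -0.80 (adjusted p = 0.0422), Klk5 at -2.32 (adjusted p = 0.0422) and Ltbp2 at 0.74 (adjusted p = 0.0172). Over 17 or 18 alternatives each, the highest adjusted p of these 6 genes was 0.281, 0.271, 0.484, 0.270, 0.323 and 0.324, in the same order, and the lowest was 0.0145, 0.0311, 0.0205, 0.0346, 0.0235 and 0.0117.

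Markers of other cells in the bulk tissue had medians on both sides of 0, with 0 members of the following lists past the threshold with all arrays. Fibroblast markers were at 0.01 with mouse medians of -2.38 to 1.61, endothelial markers at -0.10, and T and natural killer cell markers at -0.06. Langerhans and dendritic cell markers had a median of -0.26, and Cd207, the langerin of Langerhans cells, was at -1.08 (SE 0.228, adjusted p = 0.109). Sebocyte markers were at -0.51 and hair follicle markers at 0.09. The follicle homeobox gene Msx2 was at -0.89 (SE 0.165, adjusted p = 0.0746), lower in 8 of 8 mice, as were 1.81% of all genes. Skeletal muscle markers were at 0.37 with mouse medians of -1.50 to 1.81, and adipocyte markers at -0.13. Without the 2 arrays that stood apart the endothelial (0.002), T and natural killer cell (0.006) and adipocyte (0.014) medians were above 0. In that fit Cd207 passed at -1.13 (adjusted p = 0.0314; 0.0261 to 0.286 over 17 alternatives) and Msx2 at -0.98 (adjusted p = 0.0125; 0.0125 to 0.233). Foxn1, a follicle transcription factor, passed there at -1.17 (adjusted p = 0.0314; 0.0314 to 0.847 over 18), and the sebocyte gene Plin2 at 0.41 (adjusted p = 0.0303; 0.0145 to 0.373).

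Among the 377 genes past the threshold without the 2 arrays that stood apart (2.01% of all), 376 had the same direction with all arrays. This was nearly fixed in advance, since the 2 fits share every other array. Of the 377 genes, 134 fell and 20 rose more than 2-fold. The largest fall was that of Bpifa5, at -4.85 (SE 0.804, adjusted p = 0.0213), against -4.11 (adjusted p = 0.137) with all arrays. Spink7, a serine protease inhibitor, was at -3.43 (SE 0.550, adjusted p = 0.0199) and the metallothionein of squamous epithelium Mt4 at -2.76 (SE 0.582, adjusted p = 0.0469). On the rising side were Reg1, a secreted lectin (2.28, SE 0.467, adjusted p = 0.0431), and Prokr2, a prokineticin receptor (2.20, SE 0.355, adjusted p = 0.0204). Over 18 alternatives the adjusted p of Bpifa5 was 0.0213 to 0.356, and that of Spink7 0.0199 to 0.305. That of Mt4 was 0.0242 to 0.309, and over 17 alternatives Reg1 had 0.0431 to 0.470 and Prokr2 0.00561 to 0.287.

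Dorsal skin of the same 8 mice placed these levels against normal tissue. These contrasts share the tumour arrays with the comparison above, so the values are given side by side. Papilloma and skin differed in 36.1% of genes, and SCC carcinoma and skin in 30.6%. Of the 36 fallen genes, 20 were lower in papilloma than in skin (16.1% of all genes were), 4 were higher (20.1% of all), namely Klf12, Nat8l, Dexi and Slc6a17, and 32 were lower in carcinoma than in skin (15% of all). Cyp2b19 had means of 11.02 (SD 0.351) in skin, 8.23 (SD 1.06) in papilloma and 5.52 (SD 0.792) in carcinoma. Rnase2b was at 10.37 (SD 1.34), 10.09 (SD 1.43) and 6.44 (SD 1.80), and papilloma and skin differed by -0.28 (adjusted p = 0.749). Adh7 (-0.77, adjusted p = 0.141) and Aox4 (0.11, adjusted p = 0.914) likewise did not pass between papilloma and skin. Klf12 took another course, with 6.85 (SD 0.520) in skin, 8.19 (SD 0.289) in papilloma and 6.53 (SD 0.751) in carcinoma. Bpifa5 was at 3.61 (SD 0.156) in skin and 9.83 (SD 1.37) in papilloma, a rise of 6.23 (adjusted p = 4.4e-05), and at 5.72 (SD 2.54) in carcinoma.

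**Figure D5:**
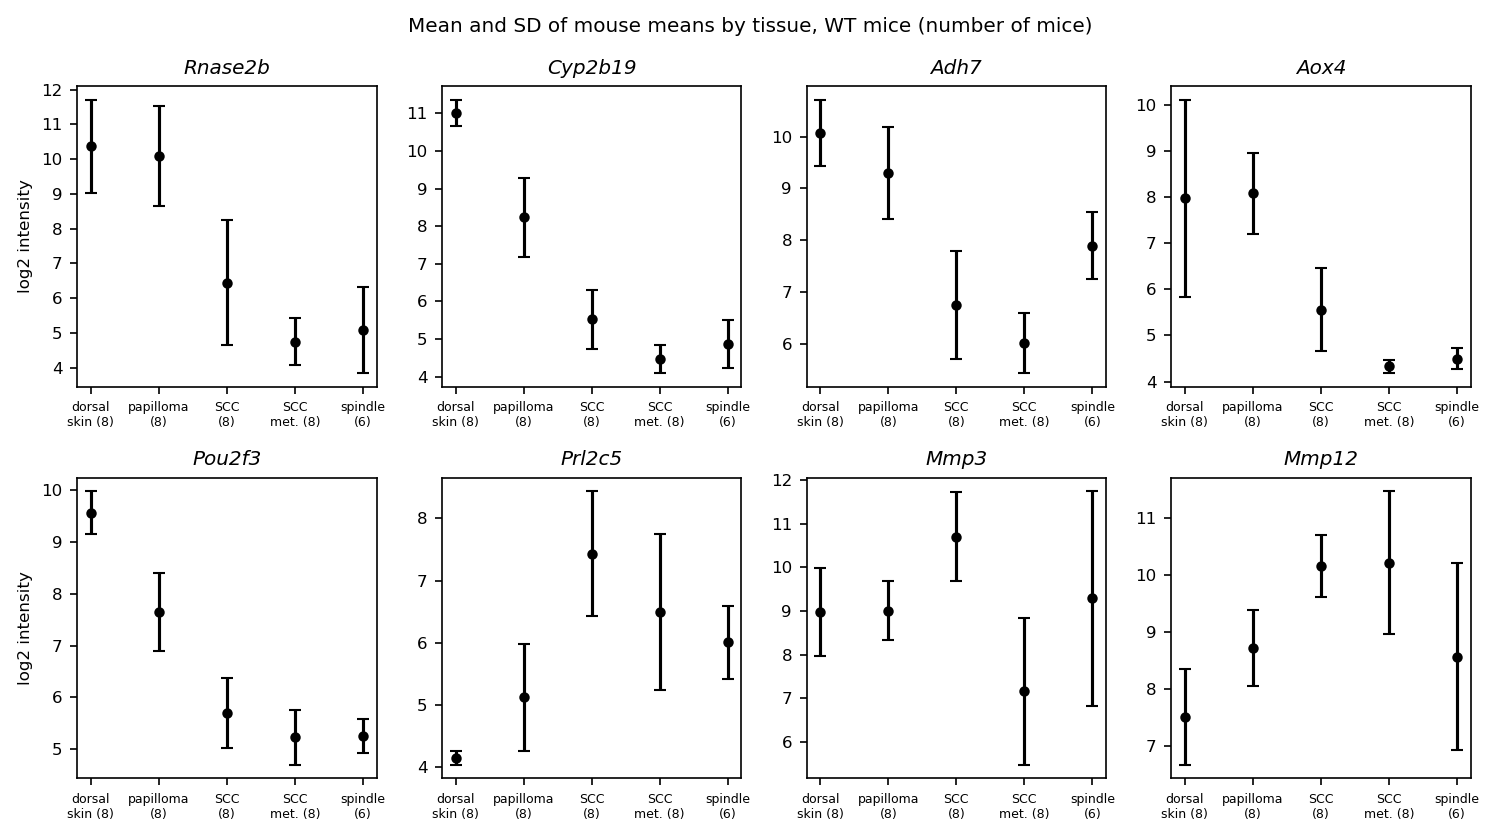
Mean log2 intensity (y axis) with SD of mouse means for 8 genes in dorsal skin, papilloma and SCC carcinoma of the 8 mice, and in SCC metastases (8 mice) and spindle carcinomas (6 mice) of WT mice. Adh7 and Aox4 differ by -0.77 and 0.11 between papilloma and skin, neither past the threshold, and Cyp2b19 and Pou2f3 step down from skin to papilloma to carcinoma.

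SCC metastases of the same 8 mice and spindle carcinomas of WT mice were set beside the fallen genes. The metastasis and spindle arrays were not used in the comparison, but the papilloma and SCC arrays they are set against are those that chose these genes, so the counts are a description from which nothing is read. The metastasis mean was below the papilloma mean for 36 of 36 (45.1% of all genes), and below the SCC carcinoma mean for 25 of 36 (48% of all). Spindle carcinomas were below SCC carcinomas for 28 of 36 (47.3% of all). Rnase2b was at 4.75 (SD 0.681, n = 8) in metastases and 5.09 (SD 1.24, n = 6) in spindle carcinomas. Adh7 was at 6.01 (SD 0.581) in metastases and 7.90 (SD 0.651) in spindle carcinomas, above its SCC carcinoma mean of 6.76. Prl2c5 stayed above its papilloma mean of 5.13, at 6.50 (SD 1.25) and 6.01 (SD 0.587). Mmp3 did not, with 7.17 (SD 1.68) in metastases against 9.01 in papillomas and 10.70 in carcinomas.

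HrasKO mice gave arrays from other animals, which differ from the WT comparison in genotype and in tumour site. Papillomas of 4 mice and SCC metastases of 3 mice were set side by side. Some of these mice gave both tissues, the values were not paired, and the mice came from both batches. The metastasis mean was below the papilloma mean for 34 of the 36 fallen genes, against 48.9% of all genes, with a median difference of -1.65 against 0.008 over all genes. Both risen genes had the higher mean in metastases, as did 51.1% of all genes. Rnase2b was at 10.39 (SD 0.675) in HrasKO papillomas and 4.43 (SD 0.554) in HrasKO metastases, Cyp2b19 at 8.90 (SD 0.986) and 4.28 (SD 0.265), and Pou2f3 at 7.86 (SD 0.737) and 4.89 (SD 0.190). The exceptions were Stmn2 at 7.33 and 8.04, and Glcci1 at 8.44 and 9.13. No test was run on these groups.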

How the data were processed

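Per the submitters' processing notes, RMA (robust multi-array averaging) was used. The authors deposited log2 intensities for 28204 probe sets; the RMA version, or any batch correction, was not given in the sources used here. Probe sets with 1 gene symbol (21141) were kept, and for 1367 genes with several probe sets the one with the highest mean was used, which left 18772 genes. Log2 values were averaged per mouse and tissue and fitted with limma 3.58.1 (lmFit, eBayes; R 4.3.3) with mouse as a fixed block. Mouse numbers in the labels pair the tissues, since both come from 1 animal. Adjusted p is two-sided Benjamini-Hochberg over all genes, with a threshold of 0.05. SD is over mouse means. The number of mice and arrays limits the precision. Batch 1 held 7 of the mice and batch 2 held 1 (mouse 1456).

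On simulated data, 74% of genes given an added log2 change of 1 and 96% of those given 2 were recovered, and 13 of 183 calls were false. There 100 genes were changed by each amount, and the noise was normal and independent between genes. Shifts shared by many genes of a sample were not simulated, so these shares need not hold for the real comparison. The members, the 48 gene lists and the alternatives were chosen with earlier results of these data known. Named genes were those past the threshold (no predicted or small RNA genes or receptor segments), up to 2 members per direction of each list with the smallest unadjusted p under 0.05 (otherwise the 2 with the largest difference), and the 8 largest rises and falls past the threshold, with the same direction in every mouse and a mean level of at least 6, without the arrays that stood apart. Further list members are named after their values were seen. Alternatives were no block, individual arrays, array weights, trend and robust eBayes, averaging probe sets, a low-value filter (over the overall median on at least 8 arrays), repeated quantile normalization, and leaving out mice, arrays that stood apart or the carcinoma titled RegCA. Promoters are RefSeq's, and several genes had none in the table. Some genes were not analysed here.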

Additional observations from a re-analysis of the deposited data

Results flagged for a closer look

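For 282 sets of 8 mouse values, the highest or lowest mouse was compared with its nearest neighbour by Dixon's ratio (critical value 0.526 for 8), and 16 were far from the others; chance flags about 1 in 20. Mouse 1949 had the highest carcinoma level of Oas1f (6.91, next 4.76), Orm1 (7.39, next 5.71), Cyp17a1 (5.76, next 4.77) and Skint10 (5.22, next 3.36), and its carcinoma arrays correlated best with papillomas. Mouse 1984 had a carcinoma level of Crip2 of 10.64, hence a difference of -0.08, and a papilloma level of Reg1 of 5.44. Low papilloma levels stood out for Stmn2 in mouse 1717 (6.62) and Spink7 in mouse 1508 (6.05). Differences stood out in mouse 1383 for Krt18 (4.48) and Tgfb1 (1.49), in mouse 1508 for Ltbp2 (-0.26) and Smad4 (-0.26), and in mouse 1717 for Cd3e (1.81). The papilloma means of mice 1508 and 1984 each include an array that stood apart. Without those arrays Ltbp2 and Smad4 were higher in 8 of 8 mice. The papilloma SD of Reg1 was 0.548 with them and 0.243 without. The median of the xenobiotic enzymes in mouse 1383 was -1.05, and that of the dendritic epidermal T cell and Skint genes in mouse 2104 was -0.68.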

How the results depend on the processing

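With mouse as a block 38 genes passed. Without the replicate block 46 passed, of which 21 were among the 38. The count was 30 with trend and robust eBayes, 35 with the mean over probe sets, 37 of 9956 genes with the filter on low values, 56 after repeated quantile normalization and 29 without the carcinoma titled RegCA. Individual arrays gave 170 with mouse as a random block and 216 with a fixed block. Those 2 fits count each array as a unit, although several arrays come from 1 mouse. Array weights gave 459 (315 lower, 144 higher), and leaving out the 2 arrays that stood apart gave 377. The cause of these larger counts was not tested. Leaving out 1 mouse gave 0 to 89 genes, with 0 for mice 1383, 1456 (the only mouse of batch 2, so that batch 1 alone gives 0) and 2022. All 38 genes, or the 27 of them that passed the filter, kept their direction under every alternative listed. For the fits without 1 mouse or without the block this was fixed in advance, since each gene had the same sign in all 8 mice. Ogn, a proteoglycan among the mesenchymal markers, had -0.63 and turned to 0.027 with array weights, neither past the threshold. Within a mouse, the labels do not tie a papilloma to a carcinoma, and 8 mice limit the smallest difference that can pass.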
